A study of Mus musculus with 14 samples.

Results

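The enzymes that write and erase DNA methylation and the core of Polycomb repressive complex 2 (PRC2) were examined in activated mouse CD4+ T cells that lack HDAC1, with or without loss of an *Hdac2* allele. The 10 genes, out of 15144 tested in the first and 13932 in the second experiment, were chosen by name, not by a rule on their values. Earlier results of these data were known when they were chosen. The 10 were the DNA methyltransferase genes *Dnmt1*, *Dnmt3a*, and *Dnmt3b*, the dioxygenase genes *Tet1*, *Tet2*, and *Tet3*, and the PRC2 genes *Ezh1*, *Ezh2*, *Eed*, and *Suz12*. All 10 had a value in each of the 14 samples, and all passed the filter on low values in both experiments.

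RNA-Seq was done on CD4+ T cells of C57BL/6 mice that had been sorted as naive cells and activated with anti-CD3/anti-CD28 and IL-2 without polarizing cytokines. In the first experiment, 4 samples from Hdac1 fl/fl Hdac2 fl/+ Cd4-Cre mice (HDAC1cKO-HDAC2HET) and 4 WT samples were taken after 3 days. In the second, 3 samples from Hdac1 fl/fl Cd4-Cre mice (HDAC1cKO) and 3 WT samples were taken after 3 days and a further 12 hours of restimulation with anti-CD3. The mice were 6 to 12 weeks old, and WT mice were littermates. *Cd4*-Cre is active in developing T cells from the stage at which they express *Cd4*, so CD8+ T cells of these mice also carry the deletion, and every comparison was of deleted cells with WT cells at one time point. The genotypes were thus not compared under the same stimulation: *Hdac2* dose, restimulation, and experiment cannot be told apart between the experiments. Sex, read from *Xist* as given below, also differed between the experiments. In the second, only WT replicate 2 shared the sex of the HDAC1cKO samples.

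DNMT1 copies methylation onto the new strand after replication, and DNMT3A and DNMT3B methylate unmethylated DNA. The TET enzymes oxidize 5-methylcytosine, the first step of active demethylation. In PRC2, EZH2 or its less active homolog EZH1 methylates histone H3 at lysine 27, and EED and SUZ12 are needed for that activity. In T cells the DNA methyltransferases and PRC2 are known for holding genes of other lineages silent and for the timing of effector genes.

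The deleted genes were checked first. *Hdac1* lay between 76.3 and 79.6 FPKM (the number of fragments scaled to transcript length and to library size) in WT and between 6.65 and 10.7 FPKM in HDAC1cKO-HDAC2HET samples. *Hdac2* lay between 58.2 and 60.3 FPKM in WT and between 34.0 and 37.0 FPKM in HDAC1cKO-HDAC2HET samples. In the second experiment *Hdac1* lay between 72.3 and 81.1 FPKM in WT and between 8.52 and 12.1 FPKM in HDAC1cKO samples, while *Hdac2* was not lower (62.4 to 78.2 FPKM in WT and 74.8 to 88.1 FPKM in HDAC1cKO samples). T cell markers were abundant in all groups. The 9 genes of the CD4 T cell list, most of them shared by all T cells, summed to between 2331 and 2966 FPKM over all samples. Markers of erythroid cells and NK cells summed to at most 0.115 FPKM in any sample.

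Sequences before the start sites are shown for the 4 genes with the largest decreases and, beside them, for *Ezh2* and *Dnmt1*, the most abundant genes of the set. Each is the 250 bases before a RefSeq start in build GRCm38.p6, written 5′ to 3′ on the strand of the gene. Capitals mark matches on either strand to the GC box GGGCGG, to the core of ETS sites CCGGAA, to the CCAAT box, to the E2F type motif TTCCCGC, to the RUNX type motif TGTGGT, or to the TATA box TATAAA. No matches overlapped in these windows.
Tet1 (chr10:62887325-62887574, - strand): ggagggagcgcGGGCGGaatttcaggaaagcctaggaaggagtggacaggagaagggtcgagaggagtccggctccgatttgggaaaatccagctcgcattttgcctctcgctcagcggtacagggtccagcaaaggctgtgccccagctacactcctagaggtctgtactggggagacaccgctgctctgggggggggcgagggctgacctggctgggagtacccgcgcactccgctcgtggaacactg
Tet2 (chr3:133544391-133544640, - strand): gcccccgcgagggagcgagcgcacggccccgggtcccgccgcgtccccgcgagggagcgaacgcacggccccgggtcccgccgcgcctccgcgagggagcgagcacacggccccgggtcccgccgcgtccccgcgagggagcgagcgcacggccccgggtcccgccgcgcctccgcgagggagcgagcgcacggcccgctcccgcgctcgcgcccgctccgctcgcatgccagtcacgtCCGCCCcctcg
Tet3 (chr6:83441679-83441928, - strand): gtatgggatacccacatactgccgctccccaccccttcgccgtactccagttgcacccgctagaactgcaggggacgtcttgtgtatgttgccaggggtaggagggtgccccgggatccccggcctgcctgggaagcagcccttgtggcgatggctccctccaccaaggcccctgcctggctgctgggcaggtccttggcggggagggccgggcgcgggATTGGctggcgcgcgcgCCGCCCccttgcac
Ezh1 (chr11:101226464-101226713, - strand): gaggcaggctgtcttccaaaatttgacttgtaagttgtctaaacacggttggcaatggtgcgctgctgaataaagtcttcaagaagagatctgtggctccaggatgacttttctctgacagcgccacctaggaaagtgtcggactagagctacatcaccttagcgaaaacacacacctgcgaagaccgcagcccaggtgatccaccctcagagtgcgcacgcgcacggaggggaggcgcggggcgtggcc
Ezh2 (chr6:47595031-47595280, - strand): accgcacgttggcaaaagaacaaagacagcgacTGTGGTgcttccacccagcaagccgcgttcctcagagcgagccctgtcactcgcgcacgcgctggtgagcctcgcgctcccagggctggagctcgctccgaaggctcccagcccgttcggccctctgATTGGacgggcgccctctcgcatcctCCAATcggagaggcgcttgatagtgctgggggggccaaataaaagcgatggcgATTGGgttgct
Dnmt1 (chr9:20959889-20960138, - strand): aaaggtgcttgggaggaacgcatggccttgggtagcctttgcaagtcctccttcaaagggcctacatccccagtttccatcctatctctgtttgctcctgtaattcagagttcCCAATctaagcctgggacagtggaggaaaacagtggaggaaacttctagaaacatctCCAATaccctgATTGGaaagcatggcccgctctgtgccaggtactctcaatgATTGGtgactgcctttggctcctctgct

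The 10 windows, 1 per gene, had few of these letters in common. GGGCGG was in 6 of 10 against 32.7% of 32851 windows in the table, and CCAAT was in 4 of 10 against 33.8%. TTCCCGC was found once, before *Suz12* (3.82% of all windows), and TGTGGT once, before *Ezh2* (14%). CCGGAA (12%) and TATAAA (12.4%) were in none, and the *Ezh1* and *Eed* windows matched none of the 6 motifs. *Tet2* had the most CG pairs, 51 in 250 bases, and *Dnmt1* the fewest, 2, against a median of 6. GC content was 83.6% before *Tet2*, 62.8% before *Tet1*, 69.6% before *Tet3*, and 55.2% before *Ezh1*, against a median of 52.4%. The *Tet1* start lies 21672 bases and the *Tet3* start 17406 bases inside the outermost 5′ end of the gene in the GENCODE annotation, so each gene has other starts that are not shown. *Dnmt1* and *Dnmt3a* have 3 RefSeq starts each, and only the window of the start nearest that outermost 5′ end was used. The CG count of *Dnmt1* is thus that of 1 of its starts. Which start was used was not tested.

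In HDAC1cKO-HDAC2HET CD4+ T cells all 3 TET genes and both EZH genes were lower than in WT, whereas the 2 most abundant methyltransferase genes and *Eed* did not differ beyond the spread between replicates. *Tet1* and *Tet2* fell by more than 2-fold, *Ezh1* and *Tet3* by less, and *Dnmt3b*, *Ezh2*, and *Suz12* by 16.9%, 16.6%, and 4.85% of the WT mean. At an adjusted p of at most 0.05 (limma, Benjamini-Hochberg over all genes tested), 7 of 10 genes were lower and 0 were higher. Of all 15144 genes, 27.6% were lower and 24.2% higher by this rule. With a 2-fold threshold as well, 2 of 10 were lower, against 5.55% of all genes. The median log2 fold change was -1.04 for the TET genes, -0.17 for the PRC2 genes, -0.03 for the methyltransferase genes, and -0.05 for all genes tested.

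**Figure D1:**
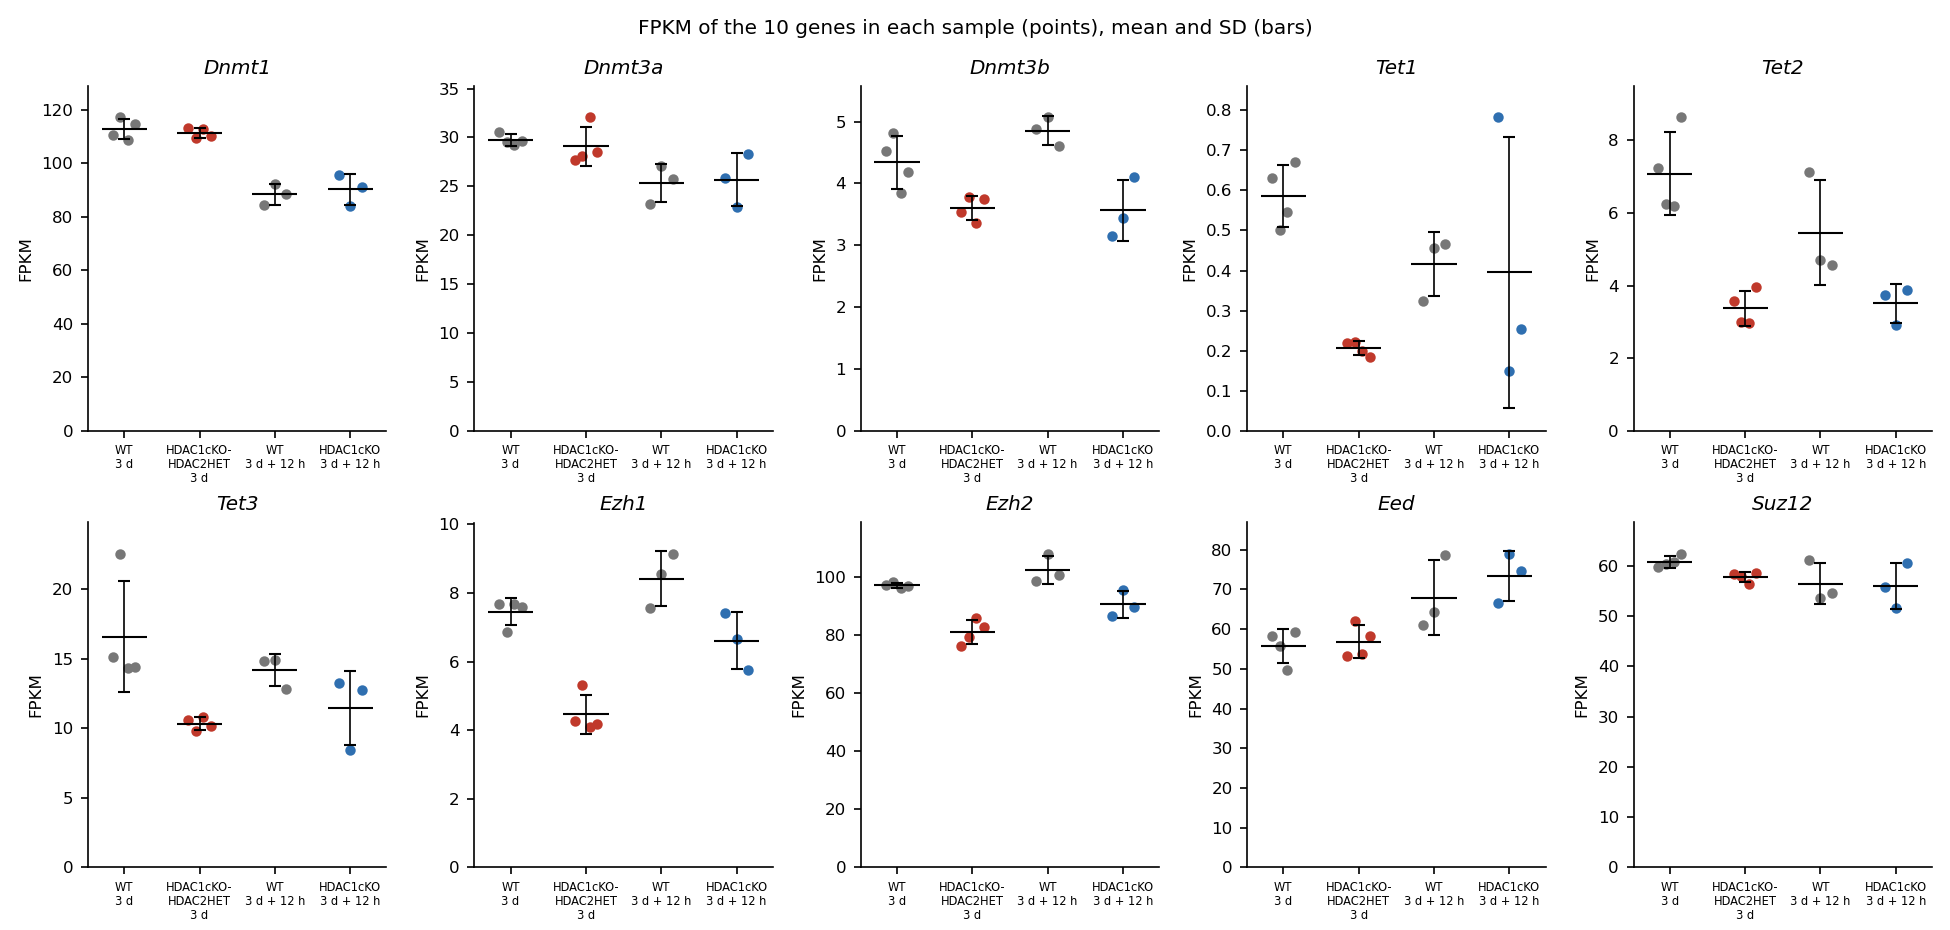
Expression of the 10 genes in each of the 14 samples. The vertical axis of each panel is FPKM from 0, points are samples, horizontal lines are group means, and error bars are the SD (n = 4 or 3). WT is grey, HDAC1cKO-HDAC2HET red, and HDAC1cKO blue. *Tet1*, *Tet2*, *Tet3*, and *Ezh1* have all 4 red points below all 4 WT points at 3 days, whereas the *Dnmt1*, *Dnmt3a*, and *Eed* points of these groups overlap.

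*Tet1* (chr10:62804570-62908996, minus strand) was the least abundant gene of the set. Its WT values were 0.631, 0.501, 0.545, and 0.670 FPKM, and its HDAC1cKO-HDAC2HET values were 0.219, 0.221, 0.200, and 0.184 FPKM. The groups did not overlap, and the gap between the lowest WT and the highest mutant sample was wider than the spread within either group. The mean was 64.9% lower (log2 fold change -1.16, SE 0.13, limma adjusted p = 1.78e-04). Because 0.1 was added to each FPKM before the logarithm, this fold change understates the ratio of the means, 0.351.

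*Tet2* (chr3:133463679-133545139, minus strand), which is recurrently mutated in T cell lymphomas, was at 7.24, 6.23, 6.19, and 8.63 FPKM in WT. In HDAC1cKO-HDAC2HET samples it was at 3.56, 3.00, 2.96, and 3.96 FPKM. Every mutant sample lay below every WT sample, and the mean was 52.3% lower (log2 fold change -1.04, SE 0.14, limma adjusted p = 4.08e-04). *Tet2* was listed by name in mutant replicates 1 and 2 and as an assembled locus without a name in the other 6 samples. With those 2 values left out, the log2 fold change was -1.01 (limma adjusted p = 0.00709).

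*Tet3* (chr6:83362373-83459084, minus strand) was the most abundant TET gene. It was at 15.1, 22.6, 14.3, and 14.4 FPKM in WT and at 10.6, 9.78, 10.8, and 10.2 FPKM in HDAC1cKO-HDAC2HET samples. WT replicate 2 stood far above the other 3, which were themselves above all mutant samples. The mean was 37.8% lower (log2 fold change -0.65, SE 0.14, limma adjusted p = 0.00599), and without WT replicate 2 the log2 fold change was -0.50 (limma adjusted p = 2.17e-04).

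Summed over the 3 TET genes, expression was 24.3 ± 3.53 FPKM (SD, n = 4) in WT and 13.9 ± 0.63 FPKM (SD, n = 4) in HDAC1cKO-HDAC2HET CD4+ T cells. *Tet3* made up 60.8% to 77.0% of that sum in WT and 71.1% to 77.4% in mutant samples, so the shares overlapped. *Tet1* held 1.71% to 2.83% of the sum in WT and 1.28% to 1.70% in mutant samples, which did not overlap. The summed methyltransferase expression, 147 ± 4.23 FPKM in WT and 144 ± 3.00 FPKM in mutant samples (SD, n = 4 each), overlapped between the groups.

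**Figure D2:**
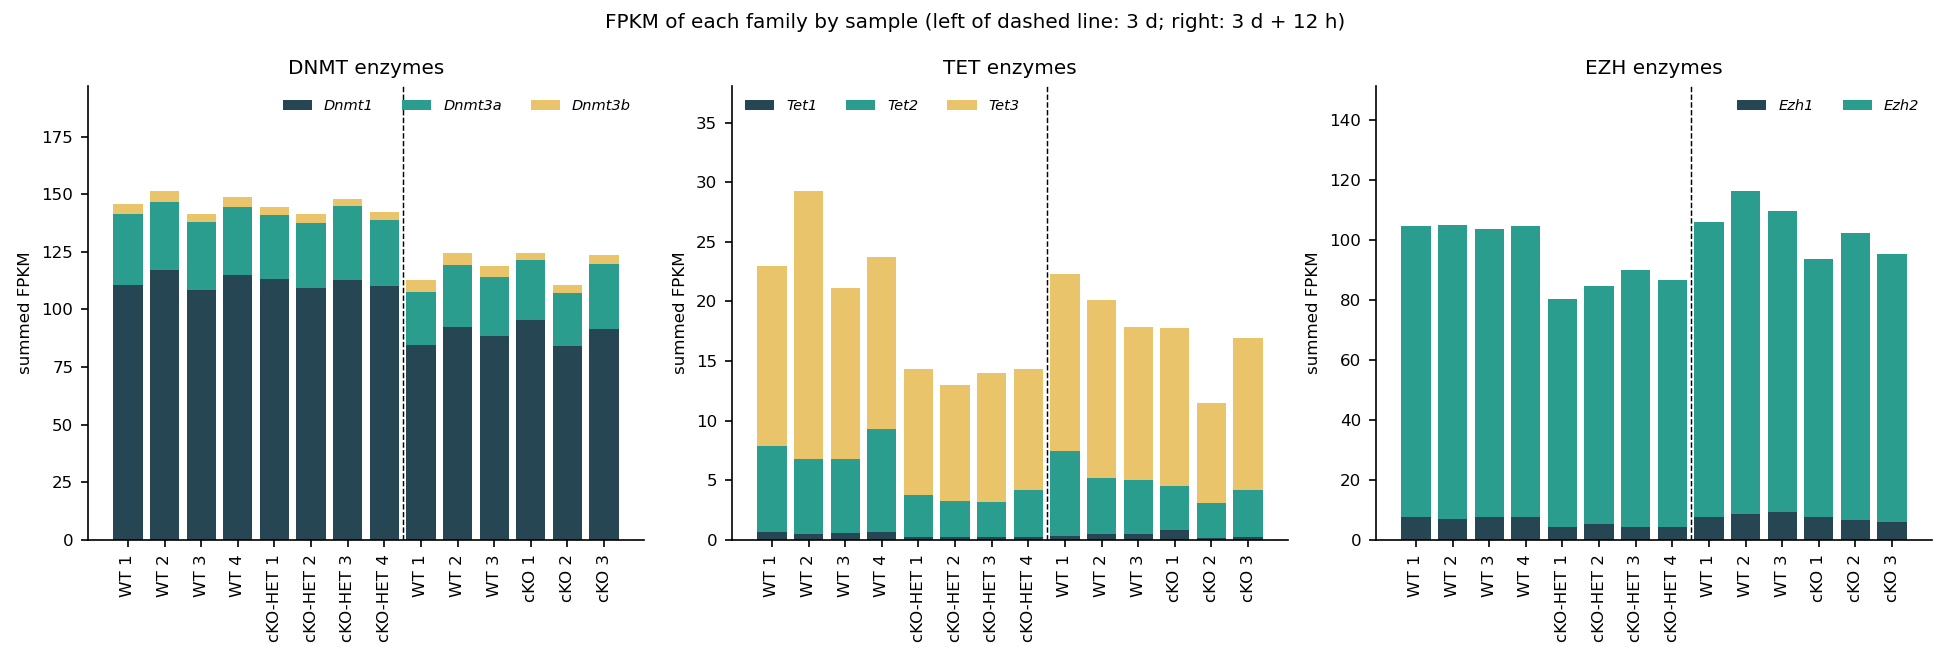
Summed FPKM of the DNA methyltransferase, TET, and EZH genes in each sample. Bars start at 0, colors are the genes of a family, and the dashed line separates the 3-day experiment from the one with 12 hours of restimulation. cKO-HET is HDAC1cKO-HDAC2HET, and cKO is HDAC1cKO. The TET bars of the 4 cKO-HET samples are all lower than those of the 4 WT samples beside them, and the DNMT bars are of similar height.

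Among the methyltransferases, only *Dnmt3b* passed the test. *Dnmt3b* (chr2:153649450-153687730, plus strand) was at 4.52, 4.82, 3.84, and 4.18 FPKM in WT and at 3.54, 3.78, 3.36, and 3.75 FPKM in HDAC1cKO-HDAC2HET samples. The groups came within 0.06 FPKM of each other without overlapping. The log2 fold change was -0.26 (SE 0.08, limma adjusted p = 0.0291), and 6 of 22 alternative settings, among them 4 that left out a single sample, gave an adjusted p above 0.05. Those samples were WT replicates 1 and 2 and mutant replicates 1 and 3, and the adjusted p without them was 0.0732, 0.0662, 0.0616, and 0.0700 in that order.

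*Dnmt1* (chr9:20907209-20959888, minus strand), the maintenance methyltransferase, was the most abundant gene of the set at 108.6 to 117.2 FPKM in WT and 109.4 to 113.2 FPKM in HDAC1cKO-HDAC2HET samples. Its log2 fold change was -0.02 with a 95% confidence interval of -0.09 to 0.05. *Dnmt3a* (chr12:3806007-3914443, plus strand) was at 29.2 to 30.6 FPKM in WT and 27.7 to 32.1 FPKM in mutant samples, with an interval of -0.15 to 0.08. Cufflinks marked its estimate in WT replicate 2, 29.5 FPKM, as failed, and without that value the log2 fold change was -0.04. *Dnmt3a* passed the test when mutant replicate 3, its highest, was left out (log2 fold change -0.08, limma adjusted p = 0.0477). When each library was centered on its median gene, both signs turned positive, at 0.02 for *Dnmt1* and 0.004 for *Dnmt3a*.

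Both catalytic subunits of PRC2 were lower, and *Ezh1* more so. *Ezh1* (chr11:101191115-101226463, minus strand) was at 7.67, 6.86, 7.67, and 7.58 FPKM in WT and at 4.28, 5.31, 4.08, and 4.17 FPKM in HDAC1cKO-HDAC2HET samples. No sample of one group reached the other. The mean was 40.1% lower (log2 fold change -0.73, SE 0.09, limma adjusted p = 2.92e-04).

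*Ezh2* (chr6:47530139-47595341, minus strand) was 13.1 ± 0.84 times (SD, n = 4) as abundant as *Ezh1* in WT on the FPKM scale, which is per length. It was at 97.1, 98.2, 96.1, and 97.0 FPKM in WT and at 76.2, 79.3, 86.0, and 82.6 FPKM in mutant samples. The WT samples were tightly grouped, and all mutant samples were below them. The mean was 16.6% lower (log2 fold change -0.26, SE 0.04, limma adjusted p = 7.57e-04). The ratio of *Ezh2* to *Ezh1* was 12.5 to 14.3 in WT and 14.9 to 21.1 in mutant samples, so that *Ezh1* made up 7.12% ± 0.40 of the summed EZH expression in WT and 5.24% ± 0.77 in HDAC1cKO-HDAC2HET CD4+ T cells (SD, n = 4 each).

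The noncatalytic core subunits moved little. *Suz12* (chr11:79993106-80034123, plus strand) was at 59.7, 60.2, 60.6, and 62.4 FPKM in WT and at 58.3, 57.9, 56.4, and 58.5 FPKM in mutant samples. The groups did not overlap, yet the mean was only 4.85% lower (log2 fold change -0.07, SE 0.02, limma adjusted p = 0.0395). That call was lost under 10 of 22 alternatives, with an adjusted p of up to 0.319. Among these were the fits without WT replicate 2, 3, or 4 or mutant replicate 2, 3, or 4, with an adjusted p between 0.0579 and 0.103. *Eed* (chr7:89954654-89980983, minus strand) was at 49.7 to 59.2 FPKM in WT and 53.3 to 62.0 FPKM in mutant samples, with a log2 fold change of 0.03 and a 95% confidence interval of -0.14 to 0.19.

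**Figure D3:**
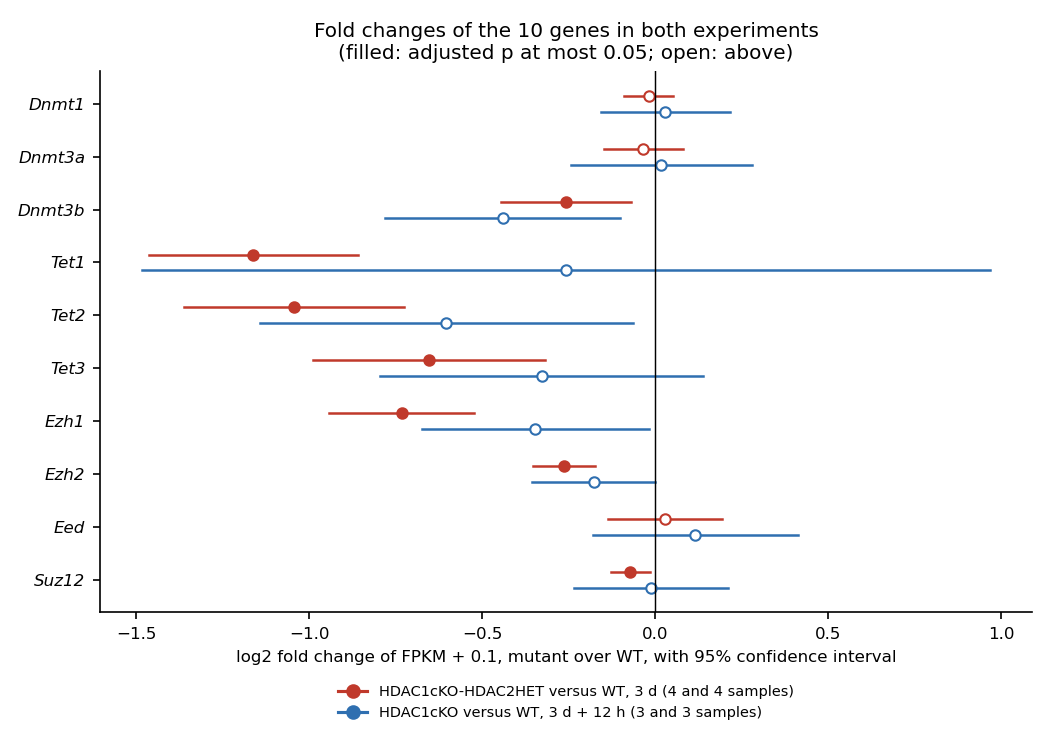
Log2 fold changes of the 10 genes with 95% confidence intervals from limma. The horizontal axis is the mutant minus WT difference of log2(FPKM + 0.1), red is HDAC1cKO-HDAC2HET and blue is HDAC1cKO, each against the WT samples of its own experiment, and filled points have an adjusted p of at most 0.05. Red points are filled for 7 genes, and no blue point is filled.

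The groups did not overlap for the 7 genes called, and the 2-sided exact permutation test gave p = 0.0286 for each, the smallest value that 4 against 4 samples allow. Nonoverlapping values with the mutant lower were common in this experiment, at 27% of all genes. Shifts in other cell type markers ran alongside. The 2 CD8 T cell markers, *Cd8a* and *Cd8b1*, summed to 3.28 to 5.96 FPKM in WT and 11.7 to 15.2 FPKM in HDAC1cKO-HDAC2HET samples. Most of that sum was *Cd8b1*, at a mean of 4.71 FPKM in WT and 12.8 FPKM in mutant samples. *Cd8a* stayed low, at 0.0581 and 0.439 FPKM. The paper found CD8α protein absent or very low in activated CD4+ T cells of its mutants. On the CD4 T cell list, 8 of 9 genes were lower (median log2 fold change -0.38), against 27.6% of all genes. Apart from *Cd4* itself (-0.38), that list is shared with CD8 T cells. The 6 B cell markers summed to 0.525 to 0.960 FPKM in WT and 2.83 to 4.49 FPKM in mutant samples. Most of that rise came from *Cd79b*, at a mean of 0.293 FPKM in WT and 2.76 FPKM in mutant samples, whereas *Cd79a* was not called (limma adjusted p = 0.391) and the other 4 were not tested. The 7 myeloid markers summed to at most 1.49 FPKM in any sample, with *S100a8* and *Csf1r* at 0 in all 8. The part of these shifts in the results was not tested. In these bulk samples, fewer cells of a type and less RNA per cell cannot be told apart. The proliferation list had 8 of 19 tested genes higher, against 24.2% of all genes, and 4 lower, against 27.6%. Its median log2 fold change was 0.04, against -0.05 for all genes tested. *Mki67*, a marker of cycling cells, was not called, at -0.11 on the log2 scale (limma adjusted p = 0.141, and 0.0215 without mutant replicate 1).

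In HDAC1cKO CD4+ T cells none of the 10 genes passed the same test, in an experiment in which 0.0718% of 13932 genes did. With an unadjusted limma p under 0.05 there were 3 of 10, *Dnmt3b*, *Tet2*, and *Ezh1*, each with a lower mean, against 7.78% of all genes lower by that rule. Without overlap between the groups there were 4 of 10 with the mutant lower, these 3 and *Ezh2*, against 12.3% of all genes. A permutation test of 3 against 3 samples cannot go below 0.10, which is what it gave for these 4. The CD8 T cell markers summed to 3.80 to 4.86 FPKM in these WT and 6.52 to 7.30 FPKM in HDAC1cKO samples. *Cd8a* alone was at a mean of 0.0535 FPKM in WT and 0.277 FPKM in HDAC1cKO samples. The part of these markers in the values was not tested.

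*Tet2* was at 7.13, 4.70, and 4.55 FPKM in WT and at 3.75, 2.90, and 3.88 FPKM in HDAC1cKO samples (log2 fold change -0.60, SE 0.22, limma adjusted p = 0.313). The WT sample that stood apart was the only WT one listed as an assembled locus. Without it, the log2 fold change was -0.40, and with the named values left out instead, it was -1.06. *Dnmt3b* was at 4.88, 5.07, and 4.61 FPKM in WT and at 3.16, 3.43, and 4.11 FPKM in HDAC1cKO samples (log2 fold change -0.44, SE 0.14, limma adjusted p = 0.268). A fit of both experiments together gave the same fold change with an adjusted p of 0.0261.

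*Ezh1* was at 7.56, 8.54, and 9.14 FPKM in WT and at 7.41, 6.66, and 5.77 FPKM in HDAC1cKO samples (log2 fold change -0.35, SE 0.13, limma adjusted p = 0.333). *Ezh2* was at 98.5, 107.9, and 100.7 FPKM in WT and at 86.4, 95.6, and 89.6 FPKM in HDAC1cKO samples (log2 fold change -0.18, SE 0.07, limma adjusted p = 0.346). For both enzymes the groups came close but did not overlap.

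*Tet1* was too variable here to be compared. It was at 0.324, 0.457, and 0.467 FPKM in WT and at 0.782, 0.150, and 0.254 FPKM in HDAC1cKO samples, with replicate 1 above and the other 2 below all WT samples. The 95% confidence interval of its log2 fold change ran from -1.48 to 0.97, and without HDAC1cKO replicate 2 the sign turned, to 0.13. The Cufflinks bounds of *Tet1* reached up to 120% above the estimate in this experiment.

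*Tet3* was at 14.8, 14.9, and 12.9 FPKM in WT and at 13.3, 8.44, and 12.8 FPKM in HDAC1cKO samples, which overlapped (log2 fold change -0.33, 95% confidence interval -0.79 to 0.14). The remaining genes had log2 fold changes near 0: 0.03 for *Dnmt1*, 0.02 for *Dnmt3a*, 0.12 for *Eed*, and -0.01 for *Suz12*, with intervals of -0.16 to 0.22, -0.24 to 0.28, -0.18 to 0.41, and -0.23 to 0.21. The signs of *Dnmt1*, *Dnmt3a*, and *Suz12* turned when sex was added to the fit, to -0.03, -0.08, and 0.06. Sex was not in the labels used and was read from *Xist*, the RNA that silences an X chromosome: all samples of the first experiment and WT replicates 1 and 3 of the second expressed it (26.0 to 65.2 FPKM), and WT replicate 2 and the 3 HDAC1cKO samples did not (at most 0.0435 FPKM).

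Whether a gene's fold change differed between the experiments was asked in 1 model of all 14 samples, and 0 of 10 passed at an adjusted p of at most 0.05 in limma, against 14.6% of 13495 genes. With an unadjusted p under 0.05 there was 1 of 10, against at least 14.6% of all genes, so not above the background. That share is a lower bound, because every gene called after adjustment also passes this rule. The 1 gene was *Ezh1*, whose log2 fold change was lower by 0.39 in HDAC1cKO-HDAC2HET cells (95% confidence interval of the difference -0.72 to -0.05, limma adjusted p = 0.123). Without HDAC1cKO-HDAC2HET replicate 2, the difference for *Ezh1* was -0.47 (limma adjusted p = 0.0492). The intervals were -1.93 to 0.12 for *Tet1*, -0.995 to 0.11 for *Tet2*, and -0.86 to 0.21 for *Tet3*. All 3 include 0 and also large differences. For *Dnmt1* and *Ezh2* the interval was narrower, -0.20 to 0.10 and -0.24 to 0.07.

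The order of the levels was much the same in all groups. In WT cells at 3 days it ran, as mean FPKM, from *Dnmt1* (112.9), *Ezh2* (97.1), *Suz12* (60.7), *Eed* (55.7), and *Dnmt3a* (29.7) to *Tet3* (16.6), *Ezh1* (7.45), *Tet2* (7.07), *Dnmt3b* (4.34), and *Tet1* (0.587). Among neighbours in this order, the samples of *Ezh1* and *Tet2* overlapped, and those of the other neighbours did not. In HDAC1cKO-HDAC2HET cells *Tet2* and *Dnmt3b* overlapped instead, as did *Suz12* and *Eed*. In WT cells after restimulation *Ezh2* (102.4) was above *Dnmt1* (88.5) and *Eed* (67.9) above *Suz12* (56.4), and the samples of *Eed* and *Suz12* and those of *Tet2* and *Dnmt3b* overlapped.

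The genes whose log2 FPKM was most like that of the 3 genes with the largest changes over the 14 samples were, for *Tet2*, *Runx1* (Pearson r = 0.975), *Rest* (0.954), and *Erbin* (0.953). For *Ezh1* they were *Bckdha* (0.973), *Akr1e1* (0.966), and *Fam53b* (0.963), and for *Tet1* they were *Dleu2* (0.942), *Yeats2* (0.933), and *Elf4* (0.918). These correlations are across samples that share their genotype and experiment, so they follow the differences between the groups as well as the spread within them.

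Partners of these enzymes were taken from 4 lists, of DNA methylation partners and readers, PRC2 partners, PRC1 subunits, and H3K27 demethylases with an H2A deubiquitinase complex. In HDAC1cKO-HDAC2HET cells 23 of 47 tested genes were lower and 13 higher, against 27.6% and 24.2% of all genes, so the share that was higher was near the background. Their median log2 fold change was -0.19 against -0.05 for all genes. In HDAC1cKO cells 0 of 48 were called by limma, and 10 had an unadjusted p under 0.05, against 14.4% of all genes.

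The list of H3K27 demethylases, which remove the mark that PRC2 sets, and of the H2A deubiquitinase complex, which removes the mark that PRC1 sets, had 4 of 5 tested genes lower and 0 higher, against 27.6% and 24.2% of all genes. Both demethylase genes tested were among the 4. *Kdm6b*, which encodes the demethylase JMJD3, had the largest decrease of the partner genes named here, from 15.8, 17.1, 15.6, and 15.6 FPKM in WT to 5.88, 5.39, 5.26, and 5.91 FPKM in HDAC1cKO-HDAC2HET cells. The groups were far apart (log2 fold change -1.50, SE 0.05, limma adjusted p = 1.42e-06). The X-linked demethylase gene *Kdm6a* (-0.19) and *Asxl1* (-0.24) and *Asxl2* (-0.42), partners of the deubiquitinase BAP1, were lower by less, and *Kdm6a* was not called with both experiments in 1 fit (limma adjusted p = 0.235).

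Of the 6 tested PRC2 partners, 4 were lower and 1 higher, again against 27.6% and 24.2% of all genes. *Phf19*, a Polycomb-like protein that recruits PRC2 to chromatin, rose from 9.17 ± 0.52 to 16.5 ± 1.19 FPKM (SD, n = 4 each, log2 fold change 0.84). Its relative *Mtf2* was lower (-0.27), as were *Aebp2* (-0.35) and the histone-binding *Rbbp4* (-0.18) and *Rbbp7* (-0.15). *Jarid2* was not called (-0.20, limma adjusted p = 0.0924). Single samples decided some of these calls: the adjusted p was 0.0565 for *Aebp2* without WT replicate 1, 0.0612, 0.0603, and 0.0626 for *Rbbp4* without WT replicate 2, WT replicate 4, or mutant replicate 4, and 0.0139 for *Jarid2* without mutant replicate 1. The *Rbbp4* call was also lost with centering on the median gene (adjusted p = 0.0606) and with no filter on low values (0.0794). The *Aebp2* call was also lost with no filter (0.0860), with a replicate block (0.0593), and with both experiments in 1 fit (0.0854).

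PRC1, the complex that ubiquitinates H2A, had 8 of 20 tested genes higher, against 24.2% of all genes, and 8 lower, against 27.6%. *Bmi1*, a core ring finger subunit also known as PCGF4, was at 16.7, 21.0, 17.4, and 19.4 FPKM in WT and at 9.95, 8.85, 9.68, and 10.2 FPKM in HDAC1cKO-HDAC2HET cells (log2 fold change -0.94). Its paralog *Pcgf2* rose from 8.09 ± 1.15 to 13.5 ± 0.30 FPKM (SD, n = 4 each, log2 fold change 0.74). The chromodomain subunit gene *Cbx8* fell (-0.76), and the corepressor gene *Bcorl1* rose (1.21). With values from named rows left out, *Bcorl1* was at 1.18 (limma adjusted p = 0.0740), and the methyl-CpG reader *Zbtb38* at -0.79 (limma adjusted p = 0.121).

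Of the 16 tested DNA methylation partners and readers, 7 were lower, against 27.6% of all genes, and 4 higher, near the background of 24.2%. *Cxxc5*, whose protein binds unmethylated CpG, rose most, from 2.64, 2.42, 2.14, and 2.99 FPKM to 9.54, 10.6, 9.73, and 9.29 FPKM (log2 fold change 1.91, SE 0.10, limma adjusted p = 5.20e-06). *Gadd45b*, linked to demethylation, rose as well (0.90). The methyl-CpG readers *Zbtb38* (-0.68), *Zbtb33* (-0.58), and *Mbd4* (-0.42) were lower, the last not with both experiments in 1 fit (limma adjusted p = 0.0715). *Uhrf1*, which brings DNMT1 to replicated DNA, was not called (-0.02 on the log2 scale, limma adjusted p = 0.817), and *Dnmt1* itself was at -0.02.

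**Figure D4:**
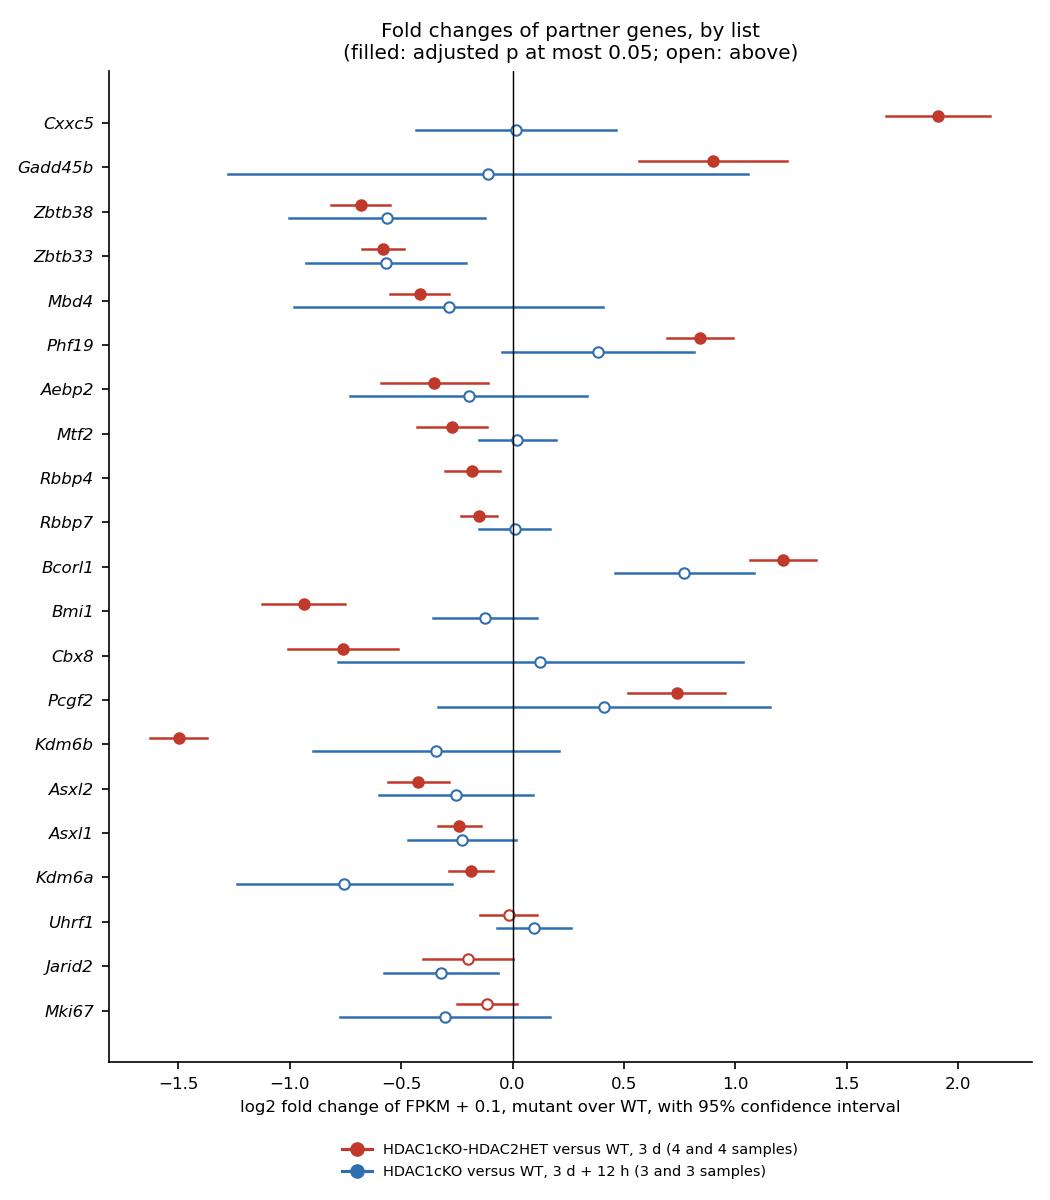
Log2 fold changes of the partner genes named in the text, in list order from DNA methylation partners (top) to H3K27 demethylases with the H2A deubiquitinase complex, followed by *Uhrf1*, *Jarid2*, and *Mki67*. Axes, colors, and filled points are as in the plot of fold changes of the 10 genes. *Cxxc5* and *Kdm6b* stand farthest out in red, and their blue points lie near 0.02 and -0.34. *Rbbp4* had no value in every sample of the HDAC1cKO experiment.

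The values carry limits from how they were made. In 9 of the 10 genes every value came from an assembled locus without a name, and 5 of the 14 *Tet2* values came from named rows. Another annotated gene overlapped 8 of the 10 loci, in 6 cases on the opposite strand, among them *Dnmt3aos* and *Dnmt3bos*. Whether the estimates used the strand is not given in the sources used here, so reads of such partners could not be told apart.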

How the data were processed

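RNA-Seq libraries of 14 samples were sequenced as 50-base single reads. The authors mapped them to mm10 with TopHat and deposited, for each library, FPKM values with confidence bounds from Cufflinks. The submitters' processing notes also name STAR 2.5.2b, Subread 1.5.1, R 3.4, and edgeR, with no role stated, and no counts were used here. FPKM is scaled to library size and length by the authors. Depth, estimated from the Cufflinks bounds of low genes with a fragment length of 200 bases, ranged in megafragments from 25.1 (HDAC1cKO-HDAC2HET replicate 3) to 59.4 (replicate 4).

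A gene was taken from its named row or, failing that, from the unnamed locus whose overlap was at least 0.8 of the joint span, matched to GENCODE genes and transcripts (GRCm38, the build of the files). A matched locus at 0 was treated as missing. The log2(FPKM + 0.1) values of each experiment went into a separate limma fit with an intensity trend (limma 3.58.1, R 4.3.3). Genes entered it when they had a value in every sample and averaged 0.1 FPKM or more, and p-values were adjusted over all of them. The difference of fold changes was a contrast over 4 group means. For single members, a 2-sided exact permutation test was run too. The scripts were tested on simulated data. Samples were grouped by the labels, and p-values measure only the spread between these samples. The first experiment used separate cell preparations made on the same day. Alternatives covered pseudocount, filter, scaling, variance model, weights, replicate number, sex, locus matching, and each sample in turn, and 3 (assembled loci only, failed estimates left out, protein-coding genes only) were chosen after seeing the data.

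The 10 members and the partner lists were chosen with earlier results of these data known. Named were all members, up to 5 called genes of each partner list with the largest fold change, and *Uhrf1*, *Kdm6a*, *Kdm6b*, *Jarid2*, *Rbbp4*, *Rbbp7*, *Mki67*, *Hdac1*, and *Hdac2*. A gene that this rule also chose is not reported here. Marker genes of cell types and *Xist* are given as checks. Tables and figures were made with Python 3.11.15, pandas 2.3.3, numpy 2.4.6, and matplotlib 3.10.9.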

Additional observations from a re-analysis of the deposited data

Results flagged for a closer look

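Of 66 groups of 4 samples examined, 7 held a sample far from its 3 neighbours by Dixon's criterion, which chance alone meets in about 1 of 20 groups. Among the enzymes these were *Tet3* in WT replicate 2 of the 3-day experiment (22.6 FPKM, highest), *Ezh1* in the same sample (6.86 FPKM, lowest), and *Ezh1* in HDAC1cKO-HDAC2HET replicate 2 (5.31 FPKM, highest). Among the partners these were *Kdm6b* in WT replicate 2 (17.1 FPKM, highest), *Uhrf1* in WT replicate 3 (160.3 FPKM, highest), *Aebp2* in HDAC1cKO-HDAC2HET replicate 1 (78.5 FPKM, lowest), and *Cbx8* in that same sample (1.32 FPKM, highest).

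Among the partner genes named in the text, the fold change of 4 differed between the experiments by the limma contrast over all 14 samples. By that rule 14.6% of 13495 genes differed. Most named genes were picked for large called changes, and list genes that are not named were left out of this count. It is thus not a count over all partner genes. The difference, HDAC1cKO-HDAC2HET minus HDAC1cKO on the log2 scale, was 1.89 for *Cxxc5* (adjusted p = 1.16e-04), -0.81 for *Bmi1* (adjusted p = 0.00133), -1.15 for *Kdm6b* (adjusted p = 0.00446), and 0.44 for *Bcorl1* (adjusted p = 0.0244). *Cxxc5* was at 2.23 to 3.05 FPKM in WT and 2.30 to 2.97 FPKM in HDAC1cKO samples after restimulation, where *Bmi1* was at 18.1 to 20.7 FPKM and 16.6 to 19.3 FPKM. When the experiments did not share 1 estimate of spread, *Kdm6b* had an adjusted p of 0.0552. *Bcorl1* had one of 0.0652 with sex in the fit, 0.0886 with a replicate block, and 0.0508 without WT replicate 4 of the 3-day experiment. *Hdac2* dose and restimulation differ between the experiments and cannot be told apart. The sex read from *Xist* differs too, and varies within a group only among the WT samples of the second experiment, on which a fit with sex rests.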

How the results depend on the processing

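In the HDAC1cKO-HDAC2HET experiment 5 to 7 of the 10 genes were lower and 0 higher under each of 22 alternatives. *Tet1*, *Tet2*, *Tet3*, *Ezh1*, and *Ezh2* were called under all alternatives that gave a value. The count at 2-fold or more, 2, was 0 with a pseudocount of 1, 1 with a filter at a mean FPKM of 1 (which removes *Tet1*), and 1 to 2 with each sample left out. In the HDAC1cKO experiment 1 gene was lower (*Dnmt3b*), 1 partner gene higher, and 5 lower when both experiments were fitted together. The share of all genes called by that joint fit was not computed, so these counts cannot be set against a background. The count of genes that differed between the experiments was 0 to 1 with each sample left out.

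Signs turned for small changes. In HDAC1cKO-HDAC2HET cells, centering on the median gene gave 0.0194 for *Dnmt1*, 0.00425 for *Dnmt3a*, and 0.0204 for *Uhrf1*, and leaving out each sample gave -0.0246 to 0.0597 for *Eed* and -0.0399 to 0.0375 for *Uhrf1*. In HDAC1cKO cells *Suz12* was at 0.00780 with centering, 0.0553 with array weights, and 0.0594 with sex, and *Dnmt1* and *Dnmt3a* at -0.0332 and -0.0803 with sex. Leaving out each sample there gave -0.0124 to 0.0794 for *Dnmt1*, -0.0537 to 0.0973 for *Dnmt3a*, -0.0707 to 0.0463 for *Suz12*, -0.78 to 0.13 for *Tet1*, and -0.0872 to 0.147 for *Cxxc5*. The difference of fold changes became 0.0147 for *Dnmt1* and 0.0467 for *Dnmt3a* with sex, and ranged from -0.131 to 0.0200 for *Dnmt3a* with each sample left out. The cause was not tested.

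With genes listed by name in every sample only, no enzyme gene had a value, and 1 partner gene was higher and 0 lower, because few are so listed. Same-numbered samples did not deviate together (correlations -0.020 to 0.046), and a replicate block left 6 of the 10 genes lower and lost *Suz12*, with 20 partner genes lower and 12 higher. Of all 15144 genes, 3787 were lower and 3329 higher in that fit. Sex does not vary in the first experiment and could not be fitted there. Centering moved the share of higher genes among those called from 46.7% to 51.2%. Of the 10 genes *Tet1* had the widest Cufflinks bounds, 10.9% to 120% above the estimate. In the first experiment they were at most 25.3% above (HDAC1cKO-HDAC2HET replicate 3, 25.1 megafragments, the lowest depth). In the second they were at least 41.4% above (HDAC1cKO replicate 1, 37.2 megafragments). The cause was not tested.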

Other observations

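*Xist*, used above only to read sex and singled out after its values were seen, was itself at 65.2, 61.7, 62.0, and 58.9 FPKM in WT and at 33.7, 26.0, 32.0, and 26.7 FPKM in HDAC1cKO-HDAC2HET samples, all of them from cells that express it. These groups did not overlap. In the second experiment both WT samples that expressed it were at 42.9 and 33.2 FPKM, and no HDAC1cKO sample did, so the comparison could not be made there. *Kdm6a*, which escapes silencing of the X chromosome, was at 15.2 and 12.4 FPKM in these 2 WT samples. It was at 9.05 FPKM in the other WT sample, and at 7.24, 6.54, and 7.39 FPKM in HDAC1cKO samples. Its log2 fold change there was -0.76 (limma adjusted p = 0.215), and -0.36 with sex in the fit (limma adjusted p = 0.532). With only 1 WT sample of the sex of the HDAC1cKO samples, sex and genotype can hardly be told apart, and the cause was not tested.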
